A study of Mus musculus with 8 samples.

Results

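The voltage-gated sodium channel subunits read here were 9 of the 22609 gene symbols counted in each library. They were taken by gene name: the pore-forming alpha subunit genes Scn1a, Scn3a, Scn8a, Scn9a, Scn10a and Scn11a, and the auxiliary beta subunit genes Scn2b, Scn3b and Scn4b. The RNA came from sensory neurons of dorsal root ganglia (DRG), which hold the cell bodies of the nerve fibres that report touch, pain and limb position. Young adult naïve C57BL/6J mice had received the fluorescent lectin WGA-488 in hindpaw skin and thigh muscle on both sides, and labelled living cells of the lumbar ganglia were collected by flow sorting some days later. The 2 groups were females, all in estrous phase, and males, with 4 libraries each and no other treatment. Each library holds the mixed RNA of all labelled cells, skin and muscle neurons together, and was made with the oligo-dT primed SMART-seq2 protocol. The labels number the libraries 1 to 4 within a sex, and they are called female 1 to 4 and male 1 to 4 here. The question was which subunits these WGA+ neurons carried, how evenly, and whether females and males differed.

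A voltage-gated sodium channel is built around 1 alpha subunit, which holds the voltage sensors and the pore and opens within a fraction of a millisecond after depolarization to start the action potential. Beta subunits are small membrane proteins with an immunoglobulin-like outer domain, and they tune the gating, surface delivery and anchoring of the alpha subunit. Sensory neurons are known for carrying alpha subunits that the toxin tetrodotoxin blocks as well as others that it does not. The resistant alpha subunits Nav1.8 (Scn10a) and Nav1.9 (Scn11a) are known from small nociceptive neurons, Nav1.7 (Scn9a) from nociceptors and other sensory neurons, and Nav1.1 (Scn1a) and Nav1.6 (Scn8a) mainly from myelinated neurons.

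The sequence that separates the blocked from the resistant channels sits in the outer pore of the first of the repeated domains. The lines below give 33 bases of 5 of the 6 alpha subunit genes around this place, read on the coding strand from the mouse genome NCBIM37 (mm9), to show the letters at this place in sensitive and resistant channels. Capitals mark the codon that follows the aspartate codon of the selectivity filter.
Scn3a: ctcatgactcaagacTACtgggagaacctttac
Scn8a: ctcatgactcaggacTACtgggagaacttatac
Scn9a: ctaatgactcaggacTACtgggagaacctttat
Scn10a: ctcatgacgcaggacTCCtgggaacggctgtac
Scn11a: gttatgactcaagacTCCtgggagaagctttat
Of the genes shown, the capital codon read tyrosine in Scn3a, Scn8a and Scn9a, and serine in Scn10a and Scn11a. An aromatic residue here is known to be needed for tight binding of tetrodotoxin, and serine gives resistance. Each stretch lay within 1 coding exon. The stretches were chr2:65359855-65359887 (minus strand) for Scn3a and chr2:66387043-66387075 (minus) for Scn9a. They were chr15:100802054-100802086 (plus) for Scn8a, chr9:119575490-119575522 (minus) for Scn10a and chr9:119714783-119714815 (minus) for Scn11a. Over whole coding sequences the 15 pairs of alpha subunits had 66.0% to 81.7% identical aligned bases, highest for Scn1a with Scn3a.

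The libraries held 4.80 to 7.33 M reads in genes (M, 1e6 reads), so that 3 reads, taken as the floor of detection, equalled 0.409 to 0.625 counts per M gene reads (CPM). Pan-neuronal and DRG markers were high in all 8 libraries, led by Tubb3 (mean 4924 CPM), Uchl1 (2671 CPM) and Stmn2 (2357 CPM), and by Prph (3429 CPM), Avil (1336 CPM) and Slc17a6 (347 CPM). Glial RNA was also present: the 14 glial markers, led by Apoe, Pmp22 and Fabp7, summed to 11555 to 14900 CPM in females and 5425 to 11156 CPM in males. All 7 macrophage and all 5 endothelial markers had means under 5 CPM, and no marker on any list was at 0 in every library. Female 4 and male 1 stood apart. Female 4 differed from the other females by a chi-square per degree of freedom of 30.1 to 44.9, against at most 12.1 in other pairs of the same sex, and its deviation from the other libraries fell with exon length across 12391 genes (Spearman's rho -0.526). Male 1 had the lowest large-fibre and glial marker sums of all 8 libraries. The fold changes of the 9 members are also given without them, as are the counts and spreads that rest most on them; leaving out both together, and the spreads and marker counts without them, were added after the data were seen. The series text counts 4 mice of each sex, but whether the libraries were prepared together or apart is not given in the sources used here, so the spread behind the p-values may in part be technical. In bulk RNA, fewer cells of a type and less RNA per cell cannot be told apart.

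Scn10a was the most abundant of the 9 subunits per length of exon. Its level was 234 ± 39.6 CPM per kb (SD over 8 libraries), rank 215 of 12391 genes ordered on this scale. Scn11a followed with 91.2 ± 29.6 CPM per kb, rank 735. The beta subunits Scn4b (42.3 ± 12.6 CPM per kb) and Scn3b (26.8 ± 7.79 CPM per kb) came next. Scn9a (22.6 ± 3.16 CPM per kb) and Scn2b (22.1 ± 4.11 CPM per kb) were close together, and Scn9a was the higher per kb in 5 of 8 libraries. Scn8a (12.9 ± 2.98 CPM per kb), Scn1a (5.53 ± 1.28 CPM per kb) and Scn3a (0.233 ± 0.0768 CPM per kb) closed the order. Neighbours in this order kept it in 8 of 8 libraries, apart from Scn9a with Scn2b, Scn4b over Scn3b and Scn3b over Scn9a, the last pairs each being in order in 7 of 8. The place of the beta subunits depends on the length used, because most of their exon length is untranslated: per kb of coding sequence Scn4b stood first, above Scn10a in 6 of 8 libraries.

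**Figure D1:**
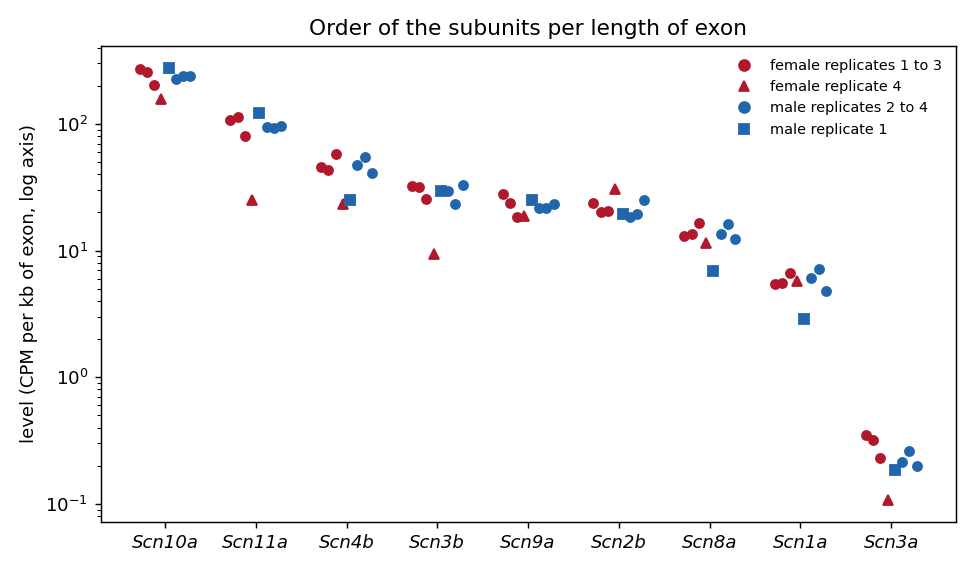
Level of each subunit in each of the 8 libraries, in CPM per kb of exon on a log axis, with the genes ordered by their mean. Points are libraries, red for female and blue for male, with female replicate 4 as triangles and male replicate 1 as squares. Scn10a lies highest in every library, Scn3a lowest, and the triangles drop below the other points in Scn11a and Scn3b.

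Scn10a encodes Nav1.8, which carries most of the current of the action potential upstroke in nociceptors. Its level was 1723, 1648, 1301 and 995 CPM in females 1 to 4. In males 1 to 4 it was 1774, 1449.6, 1529 and 1529.7 CPM. Female 4 was the lowest and male 1 the highest of the 8 libraries, and the sexes overlapped. The means were 1417 ± 336 CPM in females and 1570.5 ± 141 CPM in males (SD, n = 4 each).

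Scn11a encodes Nav1.9, which gives a slow, persistent current near the resting potential. Females 1 to 4 had 621, 656, 469 and 147 CPM. Males 1 to 4 had 712, 547, 542 and 564 CPM. The range over all libraries was thus set by female 4 at the bottom and male 1 at the top, a ratio of 4.84. The other 3 males differed by little, and the sexes overlapped. Even the lowest value rested on 874 reads, where counting error alone is 3.38%.

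Among the tetrodotoxin-sensitive alpha subunits, Scn9a was the most abundant per kb. It encodes Nav1.7, which amplifies small depolarizations, and loss of it in people abolishes pain. Females 1 to 4 had 299.7, 256, 198 and 199.95 CPM of Scn9a. Males 1 to 4 had 268, 234, 234 and 248 CPM. All 4 males lay within the range of the females, and with a ratio of 1.51 between its highest and lowest library Scn9a was the steadiest of the 9.

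Scn8a encodes Nav1.6, the main channel of the nodes of Ranvier in adult myelinated axons. Its CPM in females 1 to 4 was 144, 149, 183 and 127. In males 1 to 4 it was 76.8, 149, 179 and 137. Male 1 was the only library under 100 CPM, and the remaining males lay within the female range.

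Scn1a encodes Nav1.1, found in large neurons and in some mechanically sensitive nociceptors. It measured 60.5, 61.8, 73.5 and 63.5 CPM in females 1 to 4. It measured 32.2, 67.7, 78.6 and 52.7 CPM in males 1 to 4. Again male 1 was the lowest of all, while female 4 stood with the other females.

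Scn3a encodes Nav1.3, which is known from embryonic neurons and from neurons after axon injury. It was at the edge of what this depth can measure, with 8 to 32 reads per library, and it passed the filter on low counts. Females 1 to 4 had 4.399, 3.99, 2.92 and 1.348 CPM of Scn3a. Males 1 to 4 had 2.32, 2.67, 3.30 and 2.51 CPM. Every value was above its library's floor, but counting error at 8 reads is 35.4%, so the order of the libraries is not firm.

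The 3 beta subunits differed from each other in which libraries were low. Scn4b encodes the disulfide-linked beta subunit whose tail is known for producing resurgent sodium current in fast-firing neurons. It measured 224, 215, 286 and 115 CPM in females 1 to 4, and 123, 233, 272 and 202 CPM in males 1 to 4. Here both female 4 and male 1 were low, each below all 6 other libraries. Scn3b, whose product binds the alpha subunit without a disulfide bond, measured 148, 147, 118 and 43.6 CPM in females and 137, 137, 107 and 152 CPM in males. Only female 4 stood apart in Scn3b. Scn2b, which encodes another disulfide-linked beta subunit, measured 108, 91.3, 93.1 and 139 CPM in females and 89.2, 83.2, 88.3 and 114 CPM in males. In Scn2b, female 4 was the highest library, and male 4 was the next.

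**Figure D2:**
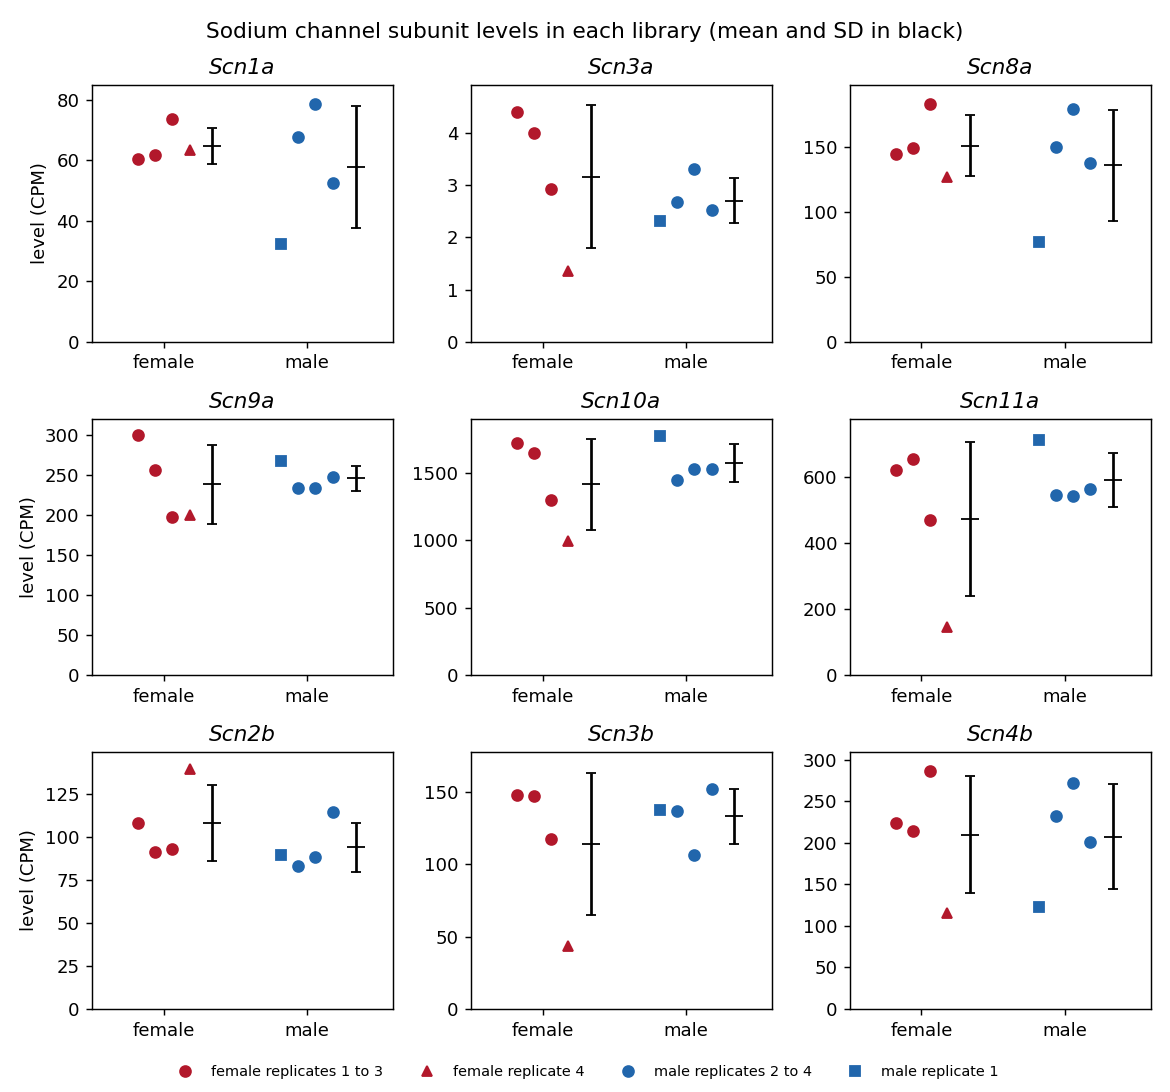
Level of each of the 9 subunits in CPM, on a linear axis from 0 drawn for each gene, with 4 female (red) and 4 male (blue) libraries. Black bars give the mean and SD of each sex. Female replicate 4 (triangle) is the lowest female in 6 of 9 subunits, and male replicate 1 (square) is far below the other males in Scn1a, Scn8a and Scn4b.

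No difference between the sexes passed the test for any of the 9 subunits. With edgeR's quasi-likelihood test on the raw counts and Benjamini-Hochberg adjustment over 12518 tested genes, all 9 passed the filter on low counts and 0 of 9 had an adjusted p under 0.05. Over all tested genes 11 did, or 0.0879%. At an unadjusted p under 0.05 the count was again 0 of 9, with 7.11% of all tested genes there. DESeq2 and limma-voom also gave 0 of 9 at either threshold, where DESeq2 called 0.383% and limma-voom 0.0799% of all genes after adjustment, and 7.42% and 7.15% before it. In none of the 9 were the CPM of the sexes apart without overlap, as they were in 5.52% of tested genes. The median log2 fold change, female over male, was 0.003 over the 9 members and 0.003 over all tested genes. A share of 0 of 9 is close to these backgrounds and is no result about the subunits as a class.

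The size of difference that the libraries leave possible varied between subunits. For Scn9a the log2 fold change was -0.06 with a 95% confidence interval of -0.38 to 0.25 (adjusted p = 0.923, edgeR), and for Scn2b it was 0.18 with an interval of -0.17 to 0.53 (adjusted p = 0.810, edgeR). Scn10a was at -0.17, with an interval of -0.54 to 0.20 (adjusted p = 0.825, edgeR). Scn1a (0.15, interval -0.36 to 0.66) and Scn8a (0.14, interval -0.36 to 0.64) were alike in both. The intervals were wider for Scn4b (0.00, -0.63 to 0.63), Scn3b (-0.24, -0.92 to 0.45) and Scn3a (0.22, -0.55 to 1.00). Scn11a had the widest (-0.34, -1.13 to 0.45, adjusted p = 0.832, edgeR), the only interval of the 9 that reached past a 2-fold difference, with that of Scn3a ending just inside it. The adjusted p of the members lay between 0.810 and 0.999.

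Much of this width rested on female 4 and male 1. Without female 4, the log2 fold change of Scn11a went from -0.34 ± 0.36 to -0.04 ± 0.13 (± SE), that of Scn3b from -0.24 ± 0.31 to 0.03 ± 0.12, and that of Scn10a from -0.17 ± 0.17 to -0.03 ± 0.10. Other members moved away from 0 in that fit: Scn3a went from 0.22 to 0.48 ± 0.27, Scn4b from 0.0032 to 0.21 ± 0.22 and Scn8a from 0.14 to 0.22 ± 0.23. Leaving out female 1 or female 2 instead moved Scn11a further from 0, to -0.49 and -0.54. Without male 1, Scn1a went from 0.15 ± 0.23 to -0.04 ± 0.16 and Scn8a from 0.14 ± 0.23 to -0.05 ± 0.16. With both left out, a choice made after the data were seen, 8 of the 9 members lay between -0.03 and 0.07. The interval of Scn11a was then -0.17 to 0.30 and that of Scn10a -0.16 to 0.24. The exception was Scn3a at 0.42 ± 0.29, the gene with the fewest reads. In each of these fits 0 of 9 members had an adjusted p under 0.05, against 0.102%, 0.0714% and 0.103% of tested genes without female 4, without male 1 and without both. At an unadjusted p under 0.05 the count was also 0 of 9 in each, against 11.4%, 4.66% and 9.75% of tested genes.

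**Figure D3:**
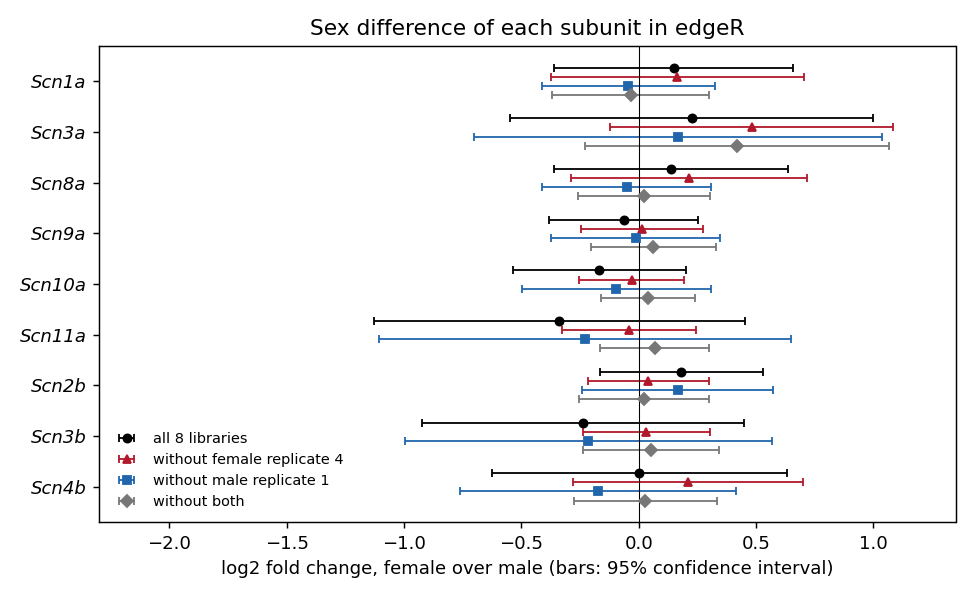
Log2 fold change, female over male, of each subunit in edgeR with 95% confidence intervals, from all 8 libraries (black circles), without female replicate 4 (red triangles), without male replicate 1 (blue squares) and without both (grey diamonds). Every interval includes 0, and the intervals of Scn11a, Scn3b and Scn10a shrink when female replicate 4 is left out.

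Seen as shares of the 6 alpha subunits, with each gene's CPM divided by its exon length, the RNA was mostly of the resistant kind. Scn10a and Scn11a together made up 88.4% of alpha subunit RNA per kb. The share was 87.3 ± 2.75% in females and 89.4 ± 1.76% in males (SD, n = 4 each), and the sexes overlapped. It was lowest in female 4 (83.5%) and highest in male 1 (92.0%). The pair Scn1a and Scn8a, both abundant in myelinated neurons, made up 2.26% in male 1 and 4.36% to 7.91% in the other 7 libraries.

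Within the resistant pair the balance was nearly fixed in 7 of 8 libraries. The ratio of Scn10a to Scn11a, per kb, was 2.54, 2.30 and 2.54 in females 1 to 3 and 2.28, 2.43, 2.58 and 2.48 in males 1 to 4. In female 4 it was 6.19. The share of Scn10a per kb was 71.8% there and 62.4% to 63.9% in the other libraries, and the share of Scn11a was 11.6% against 24.6% to 28.03%. The genes are close in exon length, with 6371 and 5837 bases, and they lie 59402 bases apart on chromosome 9, on the same strand.

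Female 4 was low in some subunits and not in others. Its deviations are given as a ratio to the geometric mean of the other 3 females, from TMM-scaled CPM with 1 CPM added. Scn11a stood at 0.252, and only 0.719% of tested genes were further below. Scn3b stood at 0.318, with 2.64% of genes further below, Scn4b at 0.474 with 10.8%, and Scn10a at 0.632 with 22.8%. Scn1a was at 0.960 and Scn2b at 1.40. After each library's trend with exon length was removed, the log2 deviations of female 4 were -1.54 for Scn11a, -1.37 for Scn3b and -0.75 for Scn4b. Scn10a moved from -0.66 to -0.16 and Scn8a from -0.34 to 0.30 by the same correction. Scn1a moved from -0.06 to 0.58, Scn9a from -0.33 to 0.30, Scn2b from 0.49 to 0.76 and Scn3a from -1.02 to -0.38. Marker lists moved too: the 8 markers of non-peptidergic nociceptors, led by Ret, Mrgprd and P2rx3, summed to 1826 CPM in female 4 and 2451 to 3020 CPM in the other females. Of these 8, 5 were lowest in female 4, Ret made the widest step (401 CPM against 905 to 971 CPM), Mrgprd (559 CPM) lay above female 3 (519 CPM), and Lpar3 was highest in female 4 (162 CPM against 111 to 127 CPM). Sums of other lists were higher in female 4, but apart from the endothelial list their members were mixed. The 9 pan-neuronal markers, led by Tubb3, summed to 16532 CPM against 12208 to 13020 CPM, while Mtap2 (20.7 CPM against 36.04 to 40.8 CPM) and Syt1 (208 CPM against 273 to 356 CPM) were lowest in female 4. The 7 DRG markers summed to 6584 CPM, 4395 CPM of it from Prph, against 4781 to 5489 CPM. Of these, Slc17a6 (173 CPM against 345 to 353 CPM) and Runx1 (33.5 CPM against 53.7 to 112 CPM) were lowest in female 4, and the mean log2 level of the list (8.14) lay within the 8.12 to 8.28 of the other females. The sum was 15.7 CPM against 3.33 to 5.73 CPM for 5 endothelial markers, each low but highest in female 4, with 9.26 CPM from Cldn5. The 7 fibroblast markers summed to 149.6 CPM against 98.7 to 114.9 CPM. Of these, Col1a1 was at 32.7 CPM against 1.25 to 2.47 CPM, while Col3a1 was lowest in female 4 (3.71 CPM against 10.4 to 16.8 CPM). For 7 macrophage markers the sum was 19.0 CPM, 9.10 CPM of it from Lyz2, against 6.19 to 13.7 CPM. The 6 peptidergic markers were mixed: their sum, led by Calca, was 6211 CPM against 4776 to 5628 CPM, but Trpv1 (141 CPM against 209 to 276 CPM) and Adcyap1 (129 CPM against 132 to 199.6 CPM) were lowest in female 4, and the mean log2 level of the list (9.06) lay within the 8.88 to 9.17 of the other females. The part of cell makeup and of the length trend in the low Scn11a and Scn3b was not tested beyond this correction.

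Male 1 showed another pattern. Relative to the geometric mean of the other males, Scn1a stood at 0.506 with 3.11% of tested genes further below, Scn8a at 0.507 with 3.16%, and Scn4b at 0.535 with 3.83%. Scn11a stood at 1.31, Scn10a at 1.20 and Scn9a at 1.14. This library had almost no trend with exon length (rho 0.010). Its 12 large-fibre markers, led by Cplx1, Nefh and Kcna1, summed to 1600 CPM against 2405 to 2870 CPM in the other males, and 11 of the 12 were lowest in male 1. The 14 glial markers summed to 5425 CPM against 8912 to 11156 CPM, and 11 of the 14 were lowest there. The peptidergic markers summed to 8161 CPM against 5705 to 6975 CPM, and the non-peptidergic ones to 3314 CPM against 2709 to 2929 CPM. The part of these markers in the low Scn1a, Scn8a and Scn4b was not tested.

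**Figure D4:**
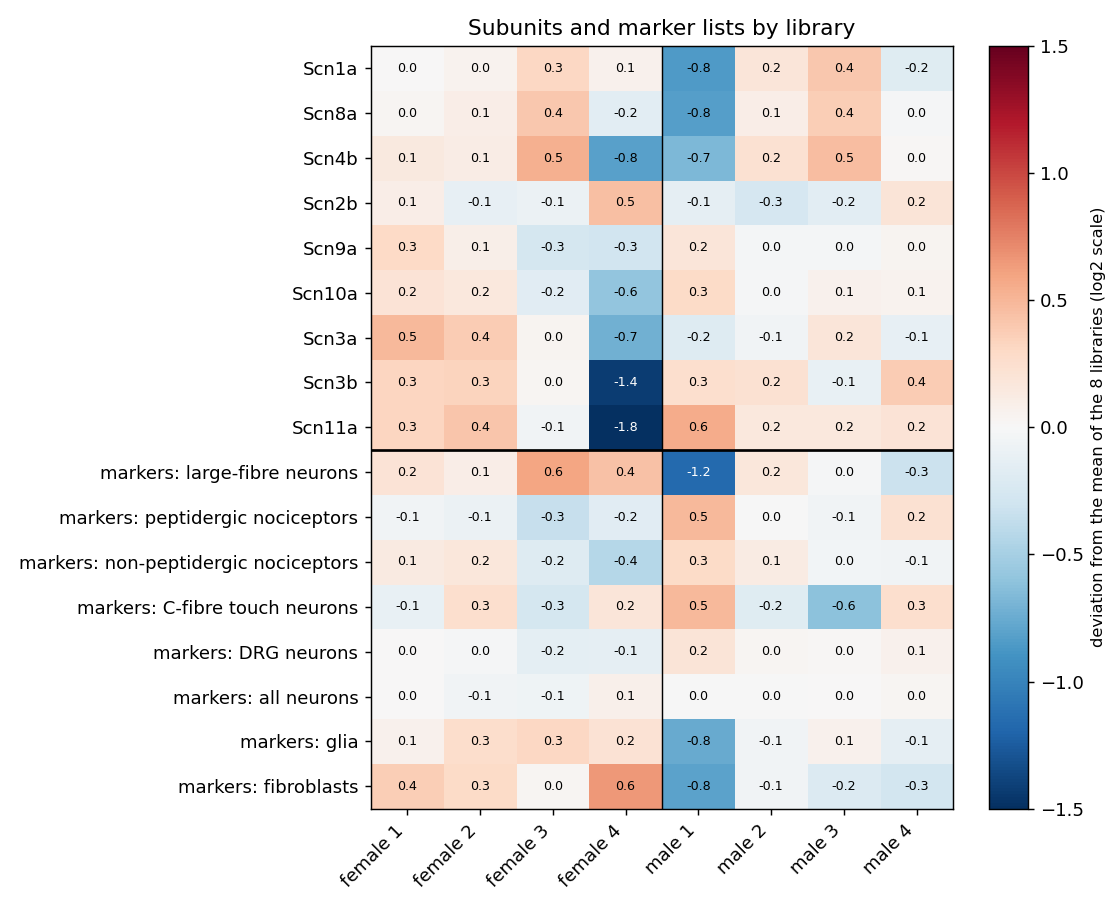
Deviation of each subunit from its mean over the 8 libraries, from log2 of TMM-scaled CPM with 1 CPM added (upper rows). The lower rows give the deviation of the mean log2 level of marker lists, from CPM without TMM scaling and with 1 CPM added. Blue is low and red is high, with values printed in the cells. Female replicate 4 is blue in Scn11a, Scn3b and Scn4b, and male replicate 1 is blue in Scn1a, Scn8a, Scn4b and the large-fibre, glial and fibroblast lists.

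Marker lists of the sorted cells were read in the same fits. At an unadjusted p under 0.05, 5 of 12 tested large-fibre, 5 of 13 glial, 4 of 5 fibroblast and 2 of 3 macrophage markers were higher in females, and 4 of 6 peptidergic markers were higher in males, with 0 called after adjustment in edgeR. Over all tested genes 4.44% were higher in females and 2.67% higher in males at that threshold. Without male 1, where 4.66% of all tested genes passed in either direction, 3 of 12 large-fibre, 4 of 13 glial, 4 of 6 fibroblast and 1 of 3 macrophage markers were higher in females and 1 of 6 peptidergic markers was higher in males. Without female 4, where 11.4% passed, 5 of 12 large-fibre, 5 of 13 glial, 2 of 6 fibroblast, 1 of 3 macrophage and 1 of 8 non-peptidergic markers were higher in females, and 4 of 6 peptidergic, 2 of 9 pan-neuronal, 2 of 7 DRG and 1 of 13 glial markers were higher in males. Without both, where 9.75% passed, 5 of 12 large-fibre, 6 of 13 glial, 2 of 5 fibroblast, 1 of 3 macrophage and 1 of 8 non-peptidergic markers were higher in females, and 3 of 6 peptidergic, 1 of 9 pan-neuronal and 1 of 7 DRG markers were higher in males. Scn1a and Scn8a, the alpha subunits known from large fibres, passed neither threshold.

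How steady the ratio of a pair of subunits was is given by the SD of its log2 over the 8 libraries. This SD is also small where both genes vary little, so it does not by itself measure moving together. Of 36 pairs the steadiest was Scn1a with Scn8a (SD 0.12), with Scn8a 2.34-fold higher per kb and higher in 8 of 8 libraries. Scn9a with Scn10a (SD 0.14) and Scn11a with Scn3b (SD 0.21) came next, and Scn8a with Scn4b (SD 0.27) was the fourth. The least steady pair was Scn11a with Scn2b (SD 0.93), followed by Scn1a with Scn11a (SD 0.92). Female 4 and male 1 set much of this: without both, the SD was 0.087 for Scn1a with Scn8a, 0.073 for Scn9a with Scn10a, 0.16 for Scn11a with Scn3b and 0.051 for Scn8a with Scn4b, then the steadiest pair. Without both it was 0.21 for Scn11a with Scn2b and 0.33 for Scn1a with Scn11a.

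**Figure D5:**
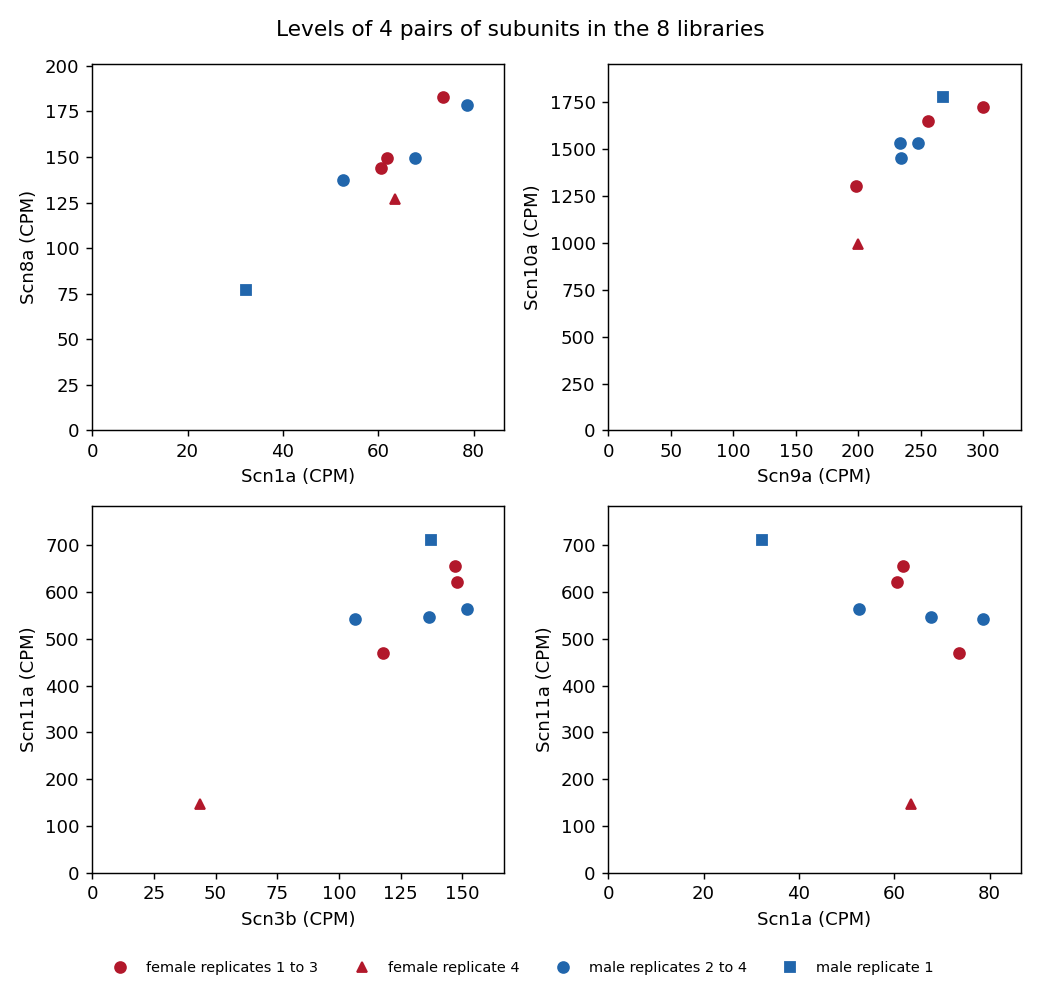
CPM of 4 pairs of subunits in the 8 libraries, with axes from 0. Scn1a and Scn8a, and Scn9a and Scn10a, rise together, while Scn11a with Scn3b is spread mainly by female replicate 4 (triangle), and Scn1a with Scn11a shows male replicate 1 (square) and female replicate 4 at opposite corners.

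The genes most like each subunit were the best of 12509 candidates by Pearson's r of log2 levels over 8 libraries, so a high r is given by the choice and is a description only. Scn1a was most like Kcna1 (r = 0.98, Spearman's rho = 0.93), an axonal potassium channel gene that also stands on the large-fibre list, and Syde1 (r = 0.98). Without the 2 libraries farthest from the median, r was 0.89 for Kcna1 and 0.82 for Syde1. Scn4b was most like Cntn1 (r = 0.99, rho = 0.95, and 0.94 without the 2 farthest), which encodes contactin, a cell surface protein known to bind sodium channels, and like Pcdh9 (r = 0.98). Scn8a came with Lgr5 and Plscr4 (both r from 0.96 to 0.97), with 0.83 and 0.72 without the 2 farthest libraries. Scn10a came with Pitpnm2 and Zfp407 (both r = 0.99), Scn11a with Tmem164 and Stard13 (r = 0.998 and 0.997), and Scn3b with Jarid2 (r = 0.998) and Capn7 (r = 0.99). Scn9a came with Rabgap1l and Trpm7 (both r = 0.98), Scn2b with Zfp637 (r = 0.98) and Tatdn3 (r = 0.93, and 0.68 without the 2 farthest), and Scn3a with Grlf1 (r = 0.99) and Phf2 (r = 0.97). For the pairs given with a single r, it was 0.88 to 0.99 without the 2 farthest libraries.

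Within each sex the spread of some members was large for their level. The coefficient of variation over males was 34.8% for Scn1a, 31.6% for Scn8a and 30.5% for Scn4b, where the median of the 4058 genes with a mean of at least 50 CPM was 6.56%. In females it was 49.0% for Scn11a and 43.0% for Scn3b, with a median of 16.9% over those genes. Scn1a was even in females, at 9.16%, in CPM that was not corrected for exon length. Without male 1 the male values were 19.6% for Scn1a, 13.7% for Scn8a and 15.0% for Scn4b, with a median of 5.10% over those genes. Without female 4 the female values were 17.1% for Scn11a and 12.5% for Scn3b, with a median of 7.89%.

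Other alpha subunit genes of the family were measured in the same libraries. Scn7a, which encodes a sodium-sensing channel that does not open by voltage alone, was at 21.2 CPM per kb. It measured 249.8, 160.0, 104 and 81.7 CPM in females and 172, 161, 165 and 154 CPM in males, so the males lay within the wide range of the females. Its log2 fold change was -0.15 ± 0.28 (SE; adjusted p = 0.908, edgeR). Without female 1, the highest library, it was -0.51 ± 0.21 (adjusted p = 0.470, edgeR), past an unadjusted p of 0.05, and without female 4, the lowest, it was 0.06 ± 0.22. Scn4a, the muscle channel, was at 1.77 CPM per kb and the brain channel Scn2a1 (Scn2a) at 0.700 CPM per kb. Scn4a measured 13.7, 16.0, 12.9 and 3.87 CPM in females and 10.8, 14.1, 15.9 and 12.4 CPM in males, with female 4 the lowest (log2 fold change -0.21 ± 0.34, adjusted p = 0.892, edgeR). Scn2a1 measured 7.70, 8.68, 6.67 and 4.38 CPM in females and 8.05, 4.31, 6.77 and 5.32 CPM in males, and the sexes overlapped (log2 fold change 0.15 ± 0.27, adjusted p = 0.906, edgeR).

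Of 30 partner genes, which are known to bind, anchor, transport or modify sodium channels, 28 passed the filter and 0 were called between the sexes by edgeR, DESeq2 or limma-voom. At an unadjusted p under 0.05 edgeR gave 1 of 28, where 7.11% of all tested genes passed: Spnb4 (the beta-IV spectrin of nodes and axon initial segments, now named Sptbn4), and the other tools gave 0. Spnb4 was at 7.70, 5.38, 9.37 and 5.90 CPM in females and 4.502, 5.79, 5.12 and 3.55 CPM in males, with overlap. Its log2 fold change was 0.56 ± 0.25 (adjusted p = 0.698, edgeR). Spnb4 passed that threshold in 3 of the 8 fits that left out 1 library, and not without female 1, female 3, male 1, male 3 or male 4. Without male 1, Fgf14 entered the test and passed it in its place (log2 fold change -1.14 ± 0.49, adjusted p = 0.972, edgeR). Without female 4 the count was 5 of 30 (Spnb4, Ncam1, Dpysl2, Calm2 and Pdzd2), against 11.4% of all tested genes. With both left out it was 4 of 29, against 9.75%. Among the most abundant partners per kb were Calm2 (1074 CPM per kb), whose product binds the tail of alpha subunits, and S100a10 (819 CPM per kb), whose product p11 carries Nav1.8 to the membrane. Fgf13, an intracellular regulator of gating, was the chief of its family at 309 CPM per kb, and Fgf11 and Fgf14 did not pass the filter with all libraries. These genes were chosen for naming by abundance and by p, apart from the Fgf genes and those named next, which were chosen after their values were seen.

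Some axonal partner genes were low in the same libraries as the subunits, and others were not. In female 4, L1cam stood at 0.296 of the other females and Ank2, ankyrin-B, at 0.409, with 1.76% and 6.78% of tested genes further below. After the length trend was removed, the log2 deviation of L1cam went from -1.76 to -1.19 and that of Ank2 from -1.29 to -0.63. In male 1 these stood at 1.21 and 1.14 of the other males. Cntn1 was low in both libraries, at 0.453 in female 4 (9.43% of tested genes further below) and 0.489 in male 1 (2.68%), as Scn4b was. This likeness is not separate from the r of Cntn1 with Scn4b given above, which came from the same libraries. In female 4 the log2 deviation of Cntn1 went from -1.14 to -0.52 with the length trend removed. Cntnap1, a protein of the paranodal junction, stood at 0.536 in male 1, with 3.88% of tested genes further below. Nrcam (0.409 in female 4 and 0.602 in male 1) and Nfasc (0.571 and 0.568) were low in both libraries too. Ncam1 (0.810 and 0.943), Spnb4 (0.816 and 0.968) and Ank3 (0.715 and 1.25) stood nearer to or above the other libraries.

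Annotation limits touch few of these values. Scn9a shares 180 exon bases with Gm13629 on the opposite strand, and since it is not known whether the counting used strand, reads there cannot be assigned. Gm13629 itself held 91 to 154 reads, against 950 to 2180 for Scn9a. Stretches of 50 bases, the read length, that also occur in other genes made up 6.41% of the positions of Scn3a, 5.33% of Scn1a, 5.14% of Scn9a, 2.10% of Scn10a and under 1% of each remaining subunit, with 0 for Scn11a, Scn3b and Scn4b. The genes cluster in the genome: Scn3a, Scn1a and Scn9a lie on chromosome 2, and Scn10a, Scn11a and all 3 beta subunit genes on chromosome 9, where Scn2b and Scn4b are 8366 bases apart. In female 4, Scn2b stood at 1.40 of the other females, the highest of its 9 subunits on this scale, and Scn4b at 0.474. Whether neighbouring genes share levels was not tested.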

How the data were processed

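RNA was sequenced from WGA+ DRG neurons of 4 female and 4 male libraries, grouped by their titles. The deposited values are raw read counts per gene symbol. The authors aligned single 50-base reads to the mouse build mm9 with TopHat2 and counted them with HTSeq-count, after bcl2fastq, per the submitters' processing notes. Versions, annotation release and strand option are not given in the sources used here. The 5 summary lines of the counting were left out. Gene reads were 39.4% to 42.1% of reads that aligned uniquely. A further 57.8% to 60.5% were assigned to no counted feature, and 0.145% to 0.169% were ambiguous. Whether the unassigned reads lay outside genes, in introns or on the other strand is not known. Libraries held 4.80 to 7.33 M gene reads (M, 1e6 reads). There were no molecular identifiers, so floors of 3 reads cover counting error only.

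Counts were tested with edgeR 4.0.16 (R 4.3.3; glmQLFit and glmQLFTest, TMM factors, filterByExpr, sex alone, adjustment over all tested genes). SE and intervals came from the same fit. CPM used gene reads, and lengths came from GENCODE M1 (NCBIM37), where 21627 symbols matched directly, 52 through an older symbol and 930 not. Alternatives were DESeq2 1.42.0, limma-voom 3.58.1, other scalings and filters, thinned counts, length and GC corrections, the replicate number as a block and leaving out libraries. The edgeR step was tested on simulated data. The members and all lists were chosen with earlier results of these data known. The text names all 9 members, other subunits, partner genes with an unadjusted p under 0.05 or among the 3 highest per kb, the 2 genes most like each member, and the 2 or 3 highest markers of a list. Some results under this rule are not reported here.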

Additional observations from a re-analysis of the deposited data

Results flagged for a closer look

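In 80 groups of 4 libraries tested for a value far from the other 3 (Dixon's test at its 95% limit), 6 were found, where chance gives about 1 in 20 groups. They fell in female 4 and male 1. In male 1, Scn11a was 712 CPM against 542 to 564 CPM in the other males, and the summed CPM of the 3 beta subunits was 349 against 453 to 468. In female 4, the share of Scn10a in alpha subunit RNA per kb was 71.8% against 62.4% to 63.8% in the other females, that of Scn11a was 11.6% against 24.6% to 27.1%, and their ratio was 6.19 against 2.30 to 2.54. The sum of the glial markers in female 4 was 14900 CPM against 11555 to 11735 CPM. Apoe made up 10873 CPM of that sum, against 8054 to 8507 CPM in the other females. The mean log2 level of the 14 markers in female 4 (6.81) lay within the 6.65 to 6.90 of the other females, and 3 of the 14 were lowest in it. The shares and the ratio are not independent of each other.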

How the results depend on the processing

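Under all 19 alternatives, 0 of 9 members and 0 of the 28 to 30 partner genes tested were called, and 0 of 9 members had an unadjusted p under 0.05. The share of Scn10a and Scn11a in alpha subunit RNA moved from 88.4% to 81.3% with raw CPM and 81.8% with coding length. Some log2 fold changes changed sign. Scn9a went from -0.065 to 0.021 with the length correction, 0.064 with the GC correction, and 0.063 without female 4 and male 1 together. In that last fit Scn1a was at -0.035, Scn10a at 0.039, Scn11a at 0.068 and Scn3b at 0.052. Scn4b went from 0.0032 to -0.017 with limma-voom, -0.059 with the GC correction, -0.19 without female 3 and -0.17 without male 1. Leaving out 1 library at a time gave ranges of -0.044 to 0.33 for Scn1a, -0.052 to 0.30 for Scn8a, -0.19 to 0.014 for Scn9a, -0.27 to -0.030 for Scn10a, -0.54 to -0.040 for Scn11a, 0.015 to 0.48 for Scn3a, 0.042 to 0.29 for Scn2b, -0.39 to 0.033 for Scn3b and -0.19 to 0.21 for Scn4b. With limma-voom Scn11a was at -0.54. The cause of these moves was not tested. Calls over all genes were 11, but 48 with DESeq2, 84 without female 1 and 6 with the replicate number as a block. Depth limits Scn3a, with 8 to 32 reads.

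The replicate numbers are shared between the sexes, and whether they pair the libraries is not known. Deviations of same-numbered libraries from the mean of their sex correlated at 0.09, -0.11, 0.14 and 0.00. Differently numbered libraries gave -0.24 to 0.15. With so few libraries, these values cannot show whether same-numbered ones were prepared together. With the replicate block, 0 of 9 members were called, Scn4b was at -0.016 and Scn11a at -0.51 ± 0.33 (SE; adjusted p = 0.740, edgeR).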
